A study of Mus musculus with 24 samples.

Results

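The 10 genes described here were read in bone-marrow-derived dendritic cells of mice. They are Car4, a membrane-anchored carbonic anhydrase, and 9 genes named as a lipid group around the nuclear receptor gene Pparg, namely Pparg itself, Fabp4, Fabp5, Cd36, Plin2, Lpl, Angptl4, Cidec and Krt79. They were chosen by name, with Car4 included because its rise from day 7 to day 10 of culture was among the largest, and they are 10 of the 55487 genes in the count table. Of the 10, 8 passed the filter on low counts that left 14535 genes for testing. Cidec, with 0 to 12 counts per library, and Krt79, with 0 to 3, did not. The members did not move as 1 group: Car4 had far higher means from day 8 on, Pparg was lower on day 8 than on day 7, and the other 6 tested genes had lower means on day 10 than on day 7 in both genotypes.

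Bone marrow of mice aged 8 to 10 weeks, of either sex, was grown in medium with GM-CSF (50 ng/mL of supernatant), and the cells in suspension were taken on days 7, 8, 9 and 10, with cells replated on days 4 and 7. All mice carried 2 floxed alleles of Arpc4, a gene whose protein is part of the Arp2/3 complex that builds branched actin. Control mice had no CD11c-Cre transgene (WT below). The mice labelled KO had 1 copy of it, so that the floxed sequence is removed only in cells that have switched on the CD11c promoter, and only from that time on. With 3 mice per genotype on each of 4 days there were 8 groups and 24 libraries of 19952047 to 31049798 counts. The question of the design was how control and KO cells differentiate over these days. With the second replating on day 7, changes counted from day 7 can hold both time in culture and replating, which cannot be told apart here.

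The targeted gene and the mouse numbers set limits on these groups. Arpc4 messenger RNA was still present in every KO library. On day 7 the 3 KO libraries held 155 to 182 CPM (counts relative to library size, with TMM factors) and the 3 WT libraries 188 to 199 CPM, and on day 10 these ranges were 173 to 185 and 208 to 242 CPM. Which exons remain cannot be read from counts per gene, so KO means the label. Ddx3y, a Y-linked gene, was high in 1 library of each group. In WT this was mouse 63 on every day, but in KO the number of that library changed from 64 to 68, back to 64 and then to 67 between days 7 and 10, so KO numbers do not follow 1 animal from day to day. Fits that block by mouse or sum over days are therefore given also after KO numbers were swapped within days to keep high Ddx3y under a single number, while values without 1 KO number leave out the libraries as labelled.

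The CD11c gene Itgax, at 474 to 1120 TPM (transcript levels scaled by gene length and library), was high in every library, while Flt3 (0.39 to 3.76 TPM) and Zbtb46 (0.68 to 10.2 TPM), which define conventional dendritic cells, were low. The summed level of 9 dendritic cell markers was 2270 to 3940 TPM on day 7 and 5930 to 13100 TPM on day 10. In KO on day 10, where its mean was 9440 TPM, it was led by Cd74, H2-Ab1, Itgax and H2-Aa. Their means were 6250, 1330, 866 and 770 TPM, so the sum mostly followed the MHC class II presentation genes Cd74, H2-Ab1 and H2-Aa. Markers of other cells were also present. Macrophage markers summed to 2640 to 3970 TPM on day 7 and 1910 to 2620 TPM on day 10, and neutrophil markers, led by S100a8 and S100a9, to 5560 to 22500 and 11100 to 23700 TPM. Adipocyte markers summed to 0.06 to 0.94 TPM over all libraries, with Lep at 0 in each, and epithelial markers to at most 0.43 TPM, with Krt8, Krt5, Krt14 and Sftpc at 0. In these bulk libraries fewer cells of a type and less RNA per cell cannot be told apart, and the part that cell mixture has in the changes below was not tested.

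PPAR gamma, the product of Pparg, is a transcription factor that binds fatty acids and their derivatives. It pairs with a retinoid X receptor and binds DNA at pairs of short AGGTCA-like cores, and it is known for switching on genes for uptake, carriage and storage of fatty acids, best studied in fat cells. In myeloid cells GM-CSF raises Pparg, and alveolar macrophages, which clear lung surfactant, depend on both. Fabp4, Cd36, Plin2, Lpl, Angptl4 and Cidec are textbook targets of PPAR receptors in one tissue or another.

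The sequence upstream of the members was read from RefSeq promoters (GRCm38.p6), because genes said to share 1 receptor might be thought to share its letters. The searched stretch was the 250 bases before each annotated start. The table held 9 such windows for 6 members, with 3 for Pparg and 2 for Cidec. It held none for Fabp4, Fabp5, Lpl and Angptl4. The core AGGTCA, on either strand, was found in 4 of the 9 windows (44.4%), against 4607 of 32851 promoter windows of the same length (14%). These 4 were 2 windows of Pparg and those of Cd36 and Plin2. Both cores of Pparg, which begin 28 and 9 bases before the annotated start of their window, lie in bases annotated as exons. The share thus counts Pparg more than once, and most of the named targets of PPAR receptors are not in it. Pairs of AGGNCA in the same orientation with 1 base between them, on either strand, were in 0 of the 9 windows and in 0.338% of all windows. The windows of Cd36 and Plin2 are shown as the 2 with a core that could be printed free of annotated exons, and that of Car4 because its messenger RNA moved against the others. Each reads 5′ to 3′ on the gene's own strand, with the core in capitals, which here is its reverse complement TGACCT.
Car4, chr11:84957504-84957753, forward strand: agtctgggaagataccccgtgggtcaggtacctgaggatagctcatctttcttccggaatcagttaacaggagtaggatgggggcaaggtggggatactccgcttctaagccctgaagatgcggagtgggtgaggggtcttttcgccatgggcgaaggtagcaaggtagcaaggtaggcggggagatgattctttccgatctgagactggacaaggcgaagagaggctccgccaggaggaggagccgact
Cd36, chr5:17835897-17836146, reverse strand: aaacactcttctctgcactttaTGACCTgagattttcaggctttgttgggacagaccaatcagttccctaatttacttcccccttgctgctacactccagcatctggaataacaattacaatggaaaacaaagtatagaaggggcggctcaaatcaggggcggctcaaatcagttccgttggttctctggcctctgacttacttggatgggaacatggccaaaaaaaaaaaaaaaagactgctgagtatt
Plin2, chr4:86670061-86670309, reverse strand, without the last base, which lies in an exon: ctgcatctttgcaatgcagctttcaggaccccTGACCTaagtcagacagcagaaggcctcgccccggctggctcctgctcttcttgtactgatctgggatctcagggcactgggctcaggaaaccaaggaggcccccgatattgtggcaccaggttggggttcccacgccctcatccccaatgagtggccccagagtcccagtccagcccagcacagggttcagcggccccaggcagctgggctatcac

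The core of Cd36 begins 228 bases before the annotated start and that of Plin2 begins 218 bases before it. The Car4 window holds neither pattern, which says only that these letters are not in this stretch. A match of letters is a description and not a binding site. The genes themselves, on GRCm38, are Car4 (ENSMUSG00000000805.18, chromosome 11, 84957786 to 84966044, forward strand), Pparg (ENSMUSG00000000440.12, chromosome 6, 115360951 to 115490399, forward) and Fabp4 (ENSMUSG00000062515.3, chromosome 3, 10204088 to 10208576, reverse). Fabp5 (ENSMUSG00000027533.10, chromosome 3, 10012548 to 10016607, forward) lies on the chromosome of Fabp4. Cd36 (ENSMUSG00000002944.15) spans chromosome 5, 17781690 to 17888801, and Plin2 (ENSMUSG00000028494.12) chromosome 4, 86648386 to 86670060, both reverse. Lpl (ENSMUSG00000015568.16) spans chromosome 8, 68880491 to 68907448, forward, and Angptl4 (ENSMUSG00000002289.16) chromosome 17, 33773750 to 33781830, reverse. Cidec (ENSMUSG00000030278.11) lies on chromosome 6 and Krt79 (ENSMUSG00000061397.8) on chromosome 15. All 10 are annotated as protein-coding.

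Car4 was almost silent on day 7 and abundant on day 8. Its enzyme sits on the outer cell surface and interconverts carbon dioxide and bicarbonate. In WT mice 63, 65 and 66 it stood at 0.602, 0.281 and 0.685 CPM on day 7, which are 15, 6 and 16 counts. On day 8 the same mice had 130, 64.9 and 94.2 CPM. Every WT library of day 8 was thus far above every library of day 7. The later days were level or lower, with 114, 53.3 and 76.1 CPM on day 9 and 91.2, 46.6 and 62.5 CPM on day 10. In the KO libraries numbered 64, 67 and 68, Car4 stood at 0.599, 1.71 and 0.643 CPM on day 7 and at 122, 92.8 and 96.8 CPM on day 8. They had 79.7, 71.1 and 91.1 CPM on day 9 and 54.7, 76.2 and 74.3 CPM on day 10.

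The rise of Car4 therefore fell between days 7 and 8. Cells were replated on day 7, so time in culture and replating cannot be told apart in this step. The mean of day 8 was 184 times that of day 7 in WT and 106 times in KO, and that of day 10 was 128 and 69.4 times that of day 7. The size of the KO ratios moves with the library numbered 67, whose 1.71 CPM on day 7 was the highest of that day: without that mouse number the KO mean of day 8 was 176 times and that of day 10 104 times that of day 7. By log2 fold change Car4 ranked 4th in WT and 2nd in KO among 14535 genes from day 7 to day 8, and 5th in both genotypes from day 7 to day 10. These values chose the gene, so they carry no test. From day 8 to day 9, a step outside that choice, the log2 fold change was -0.25 in WT (SE 0.28, edgeR adjusted p 0.65) and -0.37 in KO (SE 0.28, adjusted p 0.51). In order of mean CPM, the 6 groups of days 8 to 10 overlapped with their neighbours, and a gap without overlap separated them from the groups of day 7. Among WT mice, 65 had the lowest Car4 on 4 of 4 days.

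**Figure D1:**
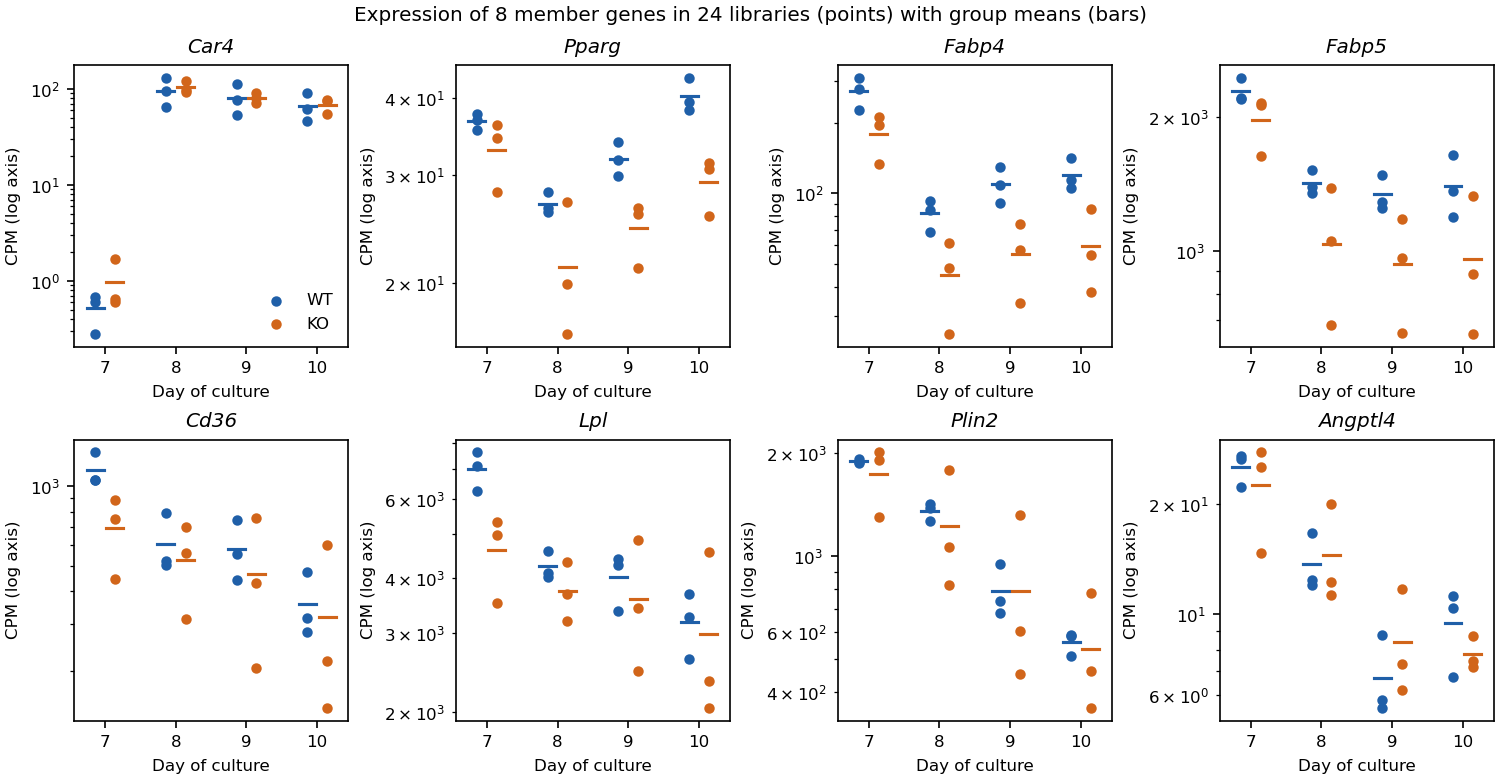
Level in CPM (log axis, each panel with its own range) of the 8 tested genes against day of culture. Points are the 3 libraries of each genotype and bars are their means. Car4 climbs from under 2 CPM to 64.9 CPM or more between days 7 and 8, while Fabp4, Fabp5, Cd36, Lpl, Plin2 and Angptl4 have lower means on day 10 than on day 7.

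Pparg encodes the receptor itself, and its level changed least from day 7 to day 10 among the 8 tested genes. In WT it stood at 35.5, 36.8 and 37.7 CPM on day 7 and at 28.1, 26.5 and 26.1 CPM on day 8. It stood at 33.9, 31.7 and 29.8 CPM on day 9 and at 38.2, 39.4 and 43.1 CPM on day 10. The 3 WT libraries of day 10 were all above those of day 7. In KO it stood at 34.4, 28.1 and 36.2 CPM on day 7, at 19.9, 16.5 and 27.1 CPM on day 8 and at 25.9, 21.1 and 26.5 CPM on day 9. On day 10 it stood at 25.7, 31.3 and 30.6 CPM, which overlapped with KO on days 7 and 8. No step after day 8 passed the edgeR test, with adjusted p of 0.31 and 0.18 in WT and 0.42 and 0.47 in KO. The log2 change from day 7 to day 10 was 0.13 in WT and -0.17 in KO, given as a description. Its sign in KO turns with scaling: it was 0.13 and 0.14 on the 2 TPM scales and 0.05 with library totals, where WT stood at 0.41, 0.42 and 0.37. The median of all genes was 0.25, 0.30 and 0.22 in KO and 0.21, 0.26 and 0.22 in WT on these scales. Pparg in KO thus stayed below that median, as it did in the main fit (median 0.0).

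Fabp4 and Fabp5 encode small cytosolic proteins that carry fatty acids, and both genes lie on chromosome 3. Fabp4 had the deepest fall of the members between days 7 and 8. In WT it stood at 227, 310 and 279 CPM on day 7, at 68.6, 93.2 and 85.1 CPM on day 8, at 91.2, 129 and 109 CPM on day 9 and at 105, 141 and 114 CPM on day 10. In KO it stood at 211, 133 and 195 CPM on day 7, at 48.2, 25.2 and 61.2 CPM on day 8, at 73.7, 34.2 and 57.2 CPM on day 9 and at 37.8, 85.5 and 54.8 CPM on day 10. In both genotypes every library of days 8 to 10 was below every library of day 7. Its mean on day 10 differed from that of day 7 by -55.9% in WT and by -67.1% in KO, given as a description.

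Fabp5 was far more abundant. In WT it stood at 2190, 2440 and 2200 CPM on day 7 and at 1350, 1520 and 1390 CPM on day 8. It stayed there, with 1250, 1480 and 1290 CPM on day 9 and 1190, 1640 and 1360 CPM on day 10. In KO it stood at 2150, 1630 and 2120 CPM on day 7 and at 1050, 681 and 1380 CPM on day 8. KO values were 1180, 654 and 965 CPM on day 9 and 652, 1330 and 889 CPM on day 10. Again no library of days 8 to 10 reached the lowest of day 7 in its genotype. The Fabp5-like gene Fabp5l2 had 0 to 3 counts per library. Whether reads of Fabp5 were lost through near-identical copies was not tested.

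Lpl and Cd36 serve uptake of fatty acids, and Angptl4 restrains it. Lpl encodes lipoprotein lipase, which frees fatty acids from circulating triglycerides. In WT it stood at 6270, 7640 and 7110 CPM on day 7, at 4020, 4600 and 4100 CPM on day 8, at 3370, 4410 and 4260 CPM on day 9 and at 2630, 3670 and 3260 CPM on day 10. In KO it stood at 5330, 3500 and 4990 CPM on day 7, at 4340, 3190 and 3680 CPM on day 8, at 4870, 2470 and 3420 CPM on day 9 and at 2040, 4560 and 2350 CPM on day 10. The WT days 7 and 10 did not overlap, but in KO the library numbered 67 on day 10, at 4560 CPM, lay above the lowest of day 7.

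Cd36 encodes a scavenger receptor that takes up fatty acids and oxidised lipoproteins. In WT it stood at 1050, 1340 and 1050 CPM on day 7, at 501, 792 and 520 CPM on day 8, at 442, 742 and 553 CPM on day 9 and at 282, 475 and 318 CPM on day 10. In KO it stood at 888, 447 and 751 CPM on day 7, at 556, 314 and 701 CPM on day 8, at 754, 206 and 431 CPM on day 9 and at 145, 599 and 219 CPM on day 10. WT libraries of day 10 were all below those of day 7, and KO libraries spread so widely that days 7 and 10 overlapped. The coefficient of variation between the 3 libraries of a group was 14.4% to 28.5% in WT and 32.4% to 76.0% in KO.

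Angptl4 encodes a secreted inhibitor of lipoprotein lipase. Its level was low and fell to a minimum on day 9 in WT. WT values were 26.9, 22.2 and 26.4 CPM on day 7, 16.6, 12 and 12.4 CPM on day 8, 8.77, 5.82 and 5.54 CPM on day 9 and 11.2, 6.74 and 10.4 CPM on day 10. KO values were 25.1, 14.7 and 27.6 CPM on day 7, 12.2, 11.3 and 20 CPM on day 8, 11.7, 6.20 and 7.31 CPM on day 9 and 7.46, 7.15 and 8.70 CPM on day 10. In both genotypes all libraries of days 9 and 10 were below those of day 7.

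Plin2 encodes the main coat protein of lipid droplets in cells other than fat cells. Its means were lower on each later day in WT, though no step from a day to the next passed the edgeR test in WT. In WT it stood at 1870, 1880 and 1920 CPM on day 7, at 1380, 1420 and 1270 CPM on day 8, at 740, 947 and 683 CPM on day 9 and at 511, 586 and 589 CPM on day 10. In KO it stood at 2010, 1300 and 1910 CPM on day 7, at 1060, 824 and 1780 CPM on day 8, at 1320, 452 and 606 CPM on day 9 and at 360, 781 and 462 CPM on day 10. The WT groups of each day stood apart from those of every other day. The edgeR test shares its spread with the KO groups, where the coefficient of variation was 22.2% to 58.6% against 1.27% to 17.6% in WT. A fit on only the WT groups compared called Plin2 in each daily step, beside 56.2%, 16.6% and 6.26% of all genes. The mean on day 10 differed from that of day 7 by -70.3% in WT and by -69.3% in KO.

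Cidec, which fuses lipid droplets in fat cells, and Krt79, an epithelial keratin gene that is also read in alveolar macrophages, were at or near the floor. Cidec had at most 12 counts in a library, reached in KO 68 on day 10, and 0 counts in 4 libraries of 24. Krt79 had at most 3 counts. No fold change is given for either.

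On the TPM scale, which allows genes to be compared, Lpl, Fabp5 and Plin2 led in WT on day 7 with means of 1780, 1690 and 1430 TPM, and the ranges of Lpl and Fabp5 overlapped. Cd36 followed at 848 TPM, then Fabp4 at 161, Pparg at 32.9, Angptl4 at 18.8 and Car4 at 0.703 TPM (n = 3 each). By day 10 the order in WT was Fabp5 (1260), Lpl (980), Plin2 (516), Cd36 (322), Car4 (110), Fabp4 (86.4), Pparg (43.9) and Angptl4 (8.65 TPM). Car4 and Fabp4 overlapped there, so a gene at the bottom of the tested members on day 7 stood level with a fatty acid carrier on day 10. In KO on day 10 Car4, at 118 ± 14.7 TPM, lay above Fabp4, at 44.3 ± 14.6 TPM (SD, n = 3), without overlap.

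Across the 24 libraries the log2 CPM of the other members ran against that of Car4, with Pearson's r of -0.45 for Pparg, -0.58 for Cd36, -0.63 for Plin2, -0.65 for Lpl, -0.73 for Angptl4, -0.74 for Fabp5 and -0.79 for Fabp4. With Cd36, the same measure was 0.97 for Lpl, 0.88 for Plin2, 0.85 for Fabp5, 0.73 for Fabp4, 0.60 for Angptl4 and 0.32 for Pparg. These are descriptions over libraries that share days and mice, with the day 7 groups apart from the rest.

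The daily steps were then tested for the members other than Car4, whose steps from day 7 and to day 10 belong to its choice. From day 7 to day 8, 5 of 7 were lower in WT at an edgeR adjusted p under 0.05, against 22% of all genes tested lower and 43.4% changed in either direction. These were Fabp4 (log2 fold change -1.73, SE 0.31, adjusted p 0.00014), Angptl4 (-0.88, SE 0.27, 0.012), Lpl (-0.72, SE 0.26, 0.028), Fabp5 (-0.68, SE 0.24, 0.029) and Pparg (-0.45, SE 0.13, 0.011). The values for Cd36 and Plin2 were -0.92 (SE 0.45, adjusted p 0.11) and -0.48 (SE 0.32, 0.24). A fit blocked by mouse with KO numbers swapped called 6 of 7 in WT, Cd36 among them, and 49.0% of all genes. In KO 3 of 7 were lower, against 20.9% lower and 42.0% changed among all genes. They were Fabp4 (-2.01, SE 0.31, adjusted p 3.6e-05), Fabp5 (-0.92, SE 0.24, 0.0047) and Pparg (-0.64, SE 0.14, 0.00078). Angptl4 in KO stood at -0.63 (SE 0.27, adjusted p 0.063), and at -0.65 in fits blocked by mouse number (adjusted p 0.035 as labelled and 0.0092 with KO numbers swapped). This step changed a large share of all genes, so the members' counts are read against a wide background. It also follows the replating on day 7, which cannot be told apart from time in culture.

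Test, scaling and single mice changed these counts. The TPM fits changed both scale and test, with limma-trend in place of edgeR. On the TPM scale the median of all genes moved by 0.17 or more on the log2 scale from day 7 to day 8. There Fabp4 and Angptl4 alone kept their call in WT while the same 3 members kept theirs in KO. Library totals in place of TMM changed the scaling alone, with all-gene medians of 0.17 in WT and 0.15 in KO. They gave 4 called members in WT and 3 in KO, against 46.4% and 44.5% of all genes. Without WT mouse 63, Fabp4 and Angptl4 were called in WT, and without mouse 65 or 66 Fabp4 alone, while the share of all genes called went from 43.4% to between 29.8% and 31.0%. A fit on only the groups compared called 7 of 7 in WT, Cd36 and Plin2 included, and 56.2% of all genes.

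After day 8 few steps passed the test. From day 8 to day 9, 1 of 8 members changed in WT against 5.4% of all genes. At an unadjusted p under 0.05 there were 2 members, beside 21.8% of all genes. The member called was Angptl4 (log2 fold change -1.03, SE 0.28, edgeR adjusted p 0.037). Blocked by mouse its adjusted p was 0.068 with KO numbers as labelled and 0.013 with them swapped, and it lost its call without any 1 of the WT mice, where 0.115% to 0.285% of all genes were called. Plin2 stood at -0.78 (SE 0.32, adjusted p 0.16) in WT and -0.62 (SE 0.32, 0.31) in KO. In KO 0 of 8 members were called by edgeR, against 2.33% of all genes, and 1 had an unadjusted p under 0.05, against 18.7% of all genes. From day 9 to day 10, 0 of 7 were called in WT and 0 of 7 in KO, against 3.6% and 0.0963% of all genes, with 1 and 0 members at an unadjusted p under 0.05 beside 17.7% and 12% of all genes. The member with the smallest p here was Pparg in WT (0.34, SE 0.13, adjusted p 0.18). The DESeq2 Wald test called 0 members in each of the 3 steps without an edgeR call. The shares of all genes it called were 6.18% from day 8 to day 9 in KO, and 5.66% in WT and 1.42% in KO from day 9 to day 10.

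**Figure D2:**
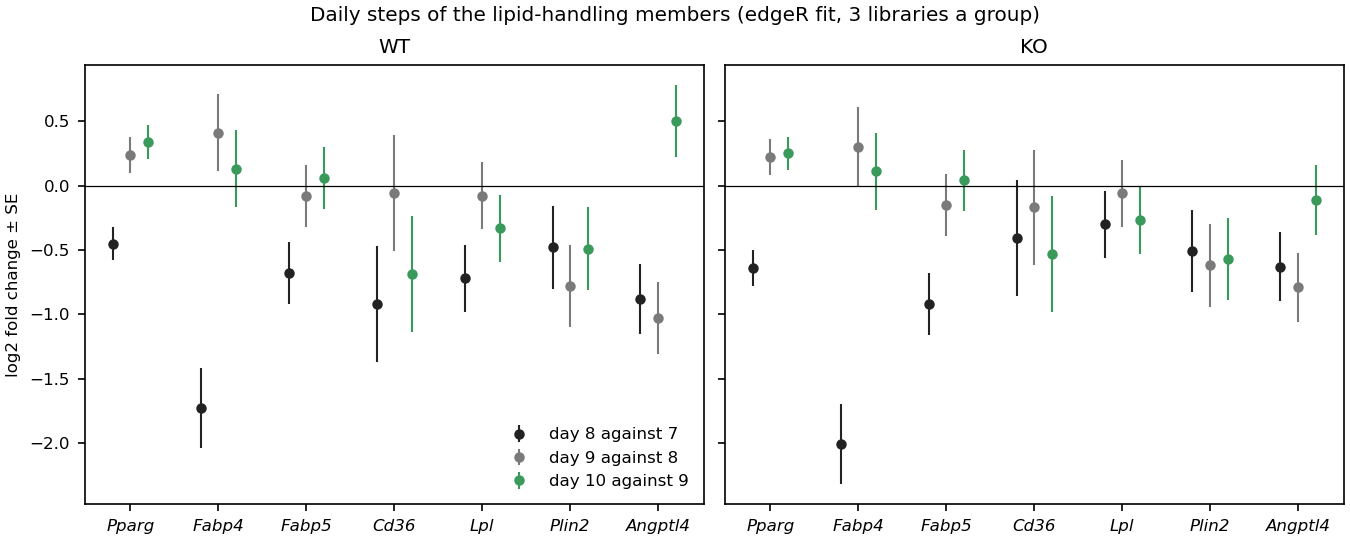
Fitted log2 fold change (y axis) of 7 members for each daily step in WT (left) and KO (right). Points are edgeR estimates, bars are 1 SE and colours mark the step. Fabp4 has the lowest point in both panels, at -1.73 in WT and -2.01 in KO from day 7 to day 8, and Pparg and Fabp4 lie above 0 in the steps after it.

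KO and WT were compared on each day for all 8 members, a contrast that the choice did not use. By edgeR 0 of 8 were called on any of the 4 days, in order against 1.45%, 0.00688%, 0.00688% and 0.0138% of all genes. Counting unadjusted p under 0.05 gave 1, 2, 3 and 3 members, against 15.7%, 5.91%, 8.15% and 7.3% of all genes. The DESeq2 Wald test called 0 on each day, against 3.6%, 0.117%, 0.674% and 0.296% of all genes.

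The member that differed most steadily between genotypes was Fabp4. Its 3 KO libraries were below its 3 WT libraries on each of the 4 days, on the CPM and the TPM scale alike (on day 10, 30.9 to 59.9 TPM in KO against 78.5 to 102 TPM in WT). The KO mean differed from the WT mean by -33.8%, -45.4%, -50% and -50.6% on days 7, 8, 9 and 10. On the log2 scale this was -0.60 (SE 0.30), -0.88 (SE 0.31), -1.0 (SE 0.31) and -1.02 (SE 0.31), with edgeR adjusted p of 0.34, 0.68, 0.29 and 0.36. Of all 14535 genes, 25 (0.172%) were lower in KO without overlap on all 4 days.

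Fabp5 and Pparg were also lower in KO on average. For Fabp5 the difference on the log2 scale was -0.21, -0.45, -0.52 and -0.55 on the 4 days (SE 0.24, edgeR adjusted p 0.72, 0.86, 0.59 and 0.63), and the groups did not overlap on days 7 and 9. For Pparg it was -0.16, -0.35, -0.38 and -0.46 (SE 0.13 to 0.14, adjusted p 0.62, 0.73, 0.40 and 0.32), without overlap on days 9 and 10. Over 32 pairings of a member and a day, 10 did not overlap, all with KO lower. Among all genes 14.2%, 4.99%, 6.47% and 4.97% were lower in KO without overlap on days 7 to 10. Without the libraries numbered KO 67, Fabp4, Fabp5 and Pparg passed the threshold on day 10, where 0.559% of all genes did against 0.0138% with all libraries, and on that day this number carried the library with high Ddx3y.

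For Cd36 the KO groups were lower on day 7 without overlap (log2 fold change -0.72, SE 0.45, adjusted p 0.46), and so were those of Lpl (-0.60, SE 0.26, 0.25). On later days both overlapped: Cd36 stood at -0.21, -0.32 and -0.16 (SE 0.45 each, adjusted p 0.98, 0.94 and 0.98), and its sign turned when single mice were left out. Car4 on day 7 was at 0.88 (SE 0.69, adjusted p 0.57), on 6 to 40 counts per library, and the groups overlapped on every day. Plin2 and Angptl4 overlapped between genotypes on every day. A difference between genotypes in the change from day 7 to day 10 was called for 0 of 7 members in the edgeR interaction (0.0619% of all genes, 0 members and 6.31% of all genes at an unadjusted p under 0.05, adjusted p 0.86 to 1.0). DESeq2 called 0 of 7, against 0.268% of all genes.

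Counts summed over the 4 days for each mouse number, a fit chosen after seeing the data, gave a result that hung on the KO numbers. With the numbers as labelled, 3 of 8 members were lower in KO, against 3.86% of 16313 genes called. They were Fabp4 (log2 fold change -0.85, SE 0.13, edgeR adjusted p 0.022), Fabp5 (-0.45, SE 0.09, 0.037) and Pparg (-0.35, SE 0.07, 0.042). After the swap of KO numbers by Ddx3y, 0 of 8 were called by edgeR, against 0.00613% of 16305 genes. The sizes were close to the first (-0.83, -0.43 and -0.34), but their SE rose to 0.25, 0.20 and 0.10 and the adjusted p to 0.31, 0.48 and 0.31, with 2 members and 11.2% of all genes at an unadjusted p under 0.05.

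**Figure D3:**
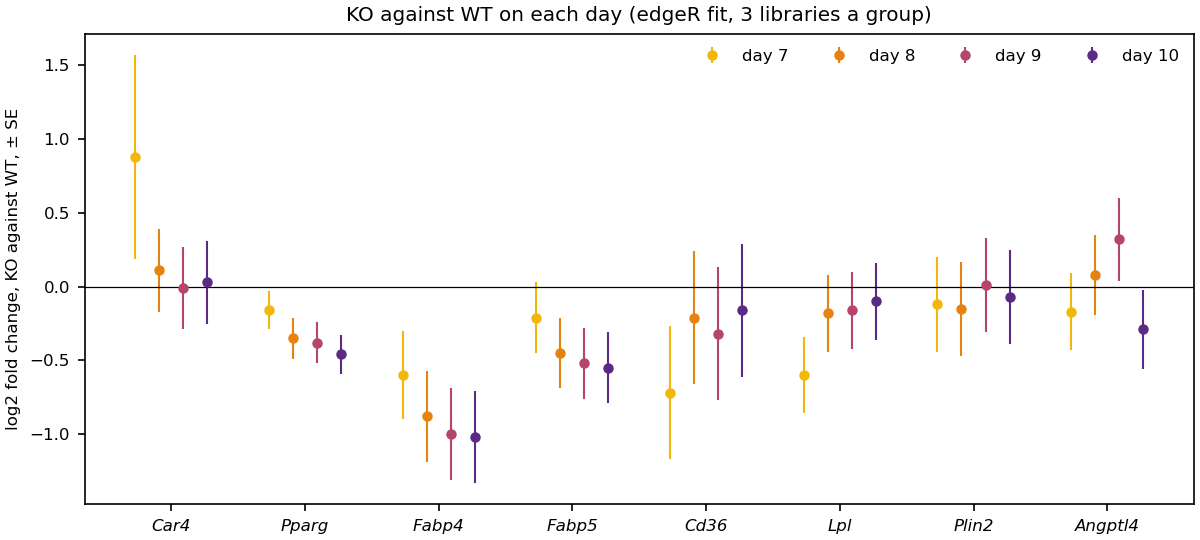
Fitted log2 fold change of KO against WT (y axis) for 8 members on each day (colours). Points are edgeR estimates and bars 1 SE, from 3 libraries a group. The 4 points of Fabp4 run from -0.60 to -1.02, and those of Plin2 lie between -0.15 and 0.01.

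The spread within groups followed individual libraries across several members at once. In WT mouse 65 was highest and mouse 63 lowest for Fabp4, Fabp5, Cd36 and Lpl on 4 of 4 days. Angptl4 ran the other way, with mouse 63 highest on 4 of 4 days. For Pparg and Plin2 the highest and the lowest WT mouse changed between days. In KO the library with high Ddx3y was the highest for Fabp4, Fabp5, Cd36 and Plin2 on 4 of 4 days and for Lpl on 3, whichever number it carried. For Fabp4, Fabp5 and Cd36 the high-Ddx3y library was thus the lowest in WT and the highest in KO on 4 of 4 days, with 1 such animal in WT and 1 such library a day in KO. The contribution of the animal's sex to this order was not tested. A fit with Xist as a covariate, a gene that was high where Ddx3y was near 0, was run for the comparisons. Between KO and WT it called 0 members on each day, against 1.64%, 0.00688%, 0.0344% and 0.0275% of all genes on days 7 to 10.

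Markers of several cell types moved with the low end in KO. The KO library lowest for Pparg, Fabp4, Fabp5, Cd36, Plin2 and Lpl had the highest summed dendritic markers on 4 of 4 days. On day 10, for example, KO 64 had Cd36 at 145 CPM beside 13100 TPM of dendritic markers, and KO 67 had 599 CPM beside 5930 TPM. In WT the lowest library was the one with the highest dendritic sum on 0 of 4 days for Fabp4, Fabp5, Cd36 and Lpl, and on 2 of 4 days for Pparg and for Plin2. The same KO library had the highest monocyte sum of its day, at 652, 455, 405 and 440 TPM on days 7 to 10, and the lowest macrophage sum, at 2840, 2580, 2570 and 2410 TPM. It had the highest neutrophil sum on days 7, 8 and 9 (22500, 15200 and 16600 TPM) but not on day 10 (20100 TPM, with 21400 TPM in KO 68). The part of these mixtures in the differences between genotypes was not tested.

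**Figure D4:**
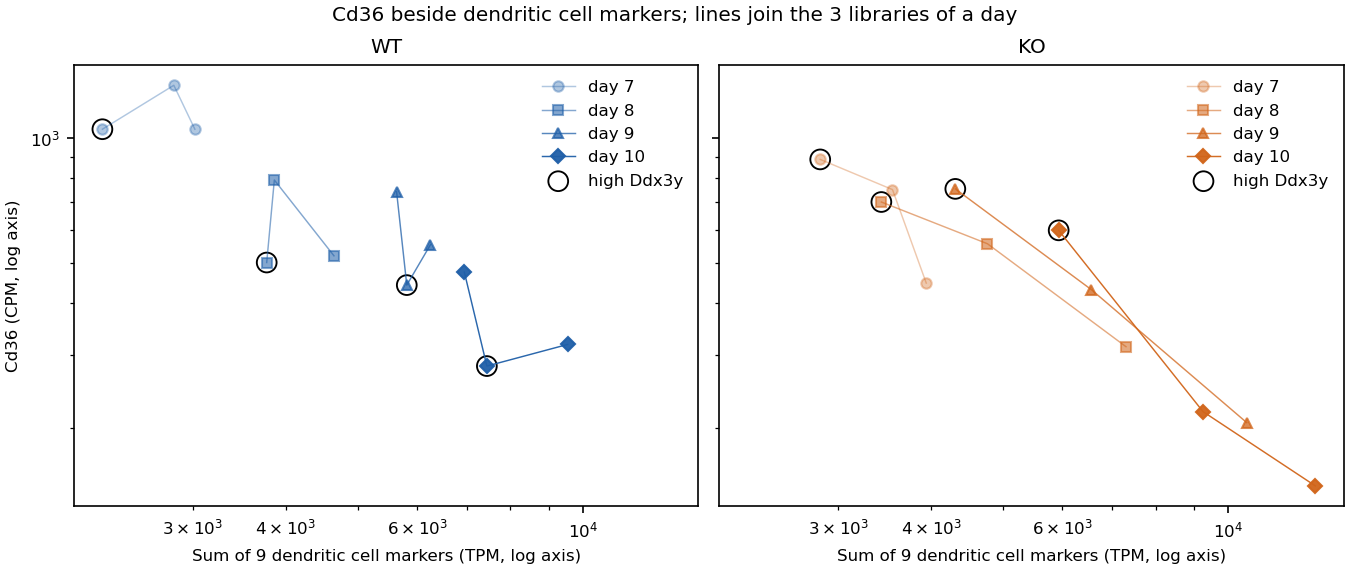
Cd36 in CPM (y, log axis) against the summed TPM of 9 dendritic cell markers (x, log axis) in WT (left) and KO (right). Each point is a library, lines join the 3 libraries of a day and rings mark the library with high Ddx3y. In KO each day's line falls from left to right, from 599 to 145 CPM on day 10, and in WT mouse 65 is the highest point of each day.

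Beyond the members, 125 genes of the surrounding pathways were read in 8 lists, of which 98 could be tested. From day 7 to day 10, 27 rose and 27 fell in WT, and 20 rose and 30 fell in KO, at an edgeR adjusted p under 0.05. Among all genes 18.9% rose and 18.1% fell in WT, and 19.7% and 17.1% in KO. Of these list genes 18 rose and 23 fell in both genotypes. The balance moves with scaling: on the log2(TPM + 1) scale, where the median of all genes rose by 0.21 in WT and 0.25 in KO, 41 rose and 15 fell in WT and 35 rose and 19 fell in KO. The edgeR interaction, for a difference between genotypes in the change from day 7 to day 10, called 0 of the 98, against 0.0619% of all genes. A call in 1 genotype alone, as for some genes below, is therefore not a called difference between genotypes.

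Of 12 tested receptors, retinoid X partners and cofactors, 1 rose and 2 fell in WT and 2 rose and 3 fell in KO, beside 18.9% and 18.1% of all genes in WT and 19.7% and 17.1% in KO. Klf4, a transcription factor of myeloid cells, rose by 0.90 (SE 0.18, adjusted p 0.00074) in WT and 0.66 (SE 0.18, 0.0078) in KO on the log2 scale. Cebpa, which acts with PPAR gamma in fat cells, changed by -0.33 (SE 0.11, adjusted p 0.017) and -0.70 (SE 0.11, 4.3e-05). Rxrb, a retinoid X receptor, was at -0.28 (SE 0.09, 0.022) in WT and at -0.35 (SE 0.09, 0.0047) in KO, and in WT it was at 0.00 on the TPM scale. In KO, Ppargc1b, a coactivator gene, rose by 0.60 (SE 0.18, 0.014) and Rxra, another retinoid X receptor gene, was at -0.36 (SE 0.14, 0.047), with WT values of 0.35 (SE 0.18, 0.15) and -0.22 (SE 0.14, 0.22). On the log2(TPM + 1) scale 6 of the 12 rose and 0 fell in WT. The median of all genes was 0.21 on that scale, so these counts carry a shift common to all genes.

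Genes of fatty acid uptake and activation went both ways, with 5 higher and 4 lower of 13 in WT and 4 and 4 in KO. The transporter family member Slc27a3 rose by 1.10 in both genotypes (SE 0.31 and 0.30, adjusted p 0.0078 and 0.0064), while Slc27a1 changed by -1.09 (SE 0.18, 9e-05) and -0.86 (SE 0.18, 0.00095). The brain-type binding protein gene Fabp7 also fell, with log2 changes of -1.71 (SE 0.45, adjusted p 0.0058) in WT and -1.82 (SE 0.46, 0.0041) in KO. Acot7, a thioesterase gene, rose by 0.79 (SE 0.11, 1.5e-05) and 0.95 (SE 0.11, 2.1e-06), and Acsl3, an acyl-CoA synthetase gene, by 0.65 (SE 0.25, 0.047) and 0.73 (SE 0.25, 0.027). Lmf1, a maturation factor for lipases, was at -0.27 (SE 0.10, 0.033) in KO, where it was at 0.02 on the TPM scale, and at -0.13 (SE 0.10, 0.34) in WT. Acsl4, a related synthetase gene, was at -0.36 (SE 0.12, 0.026) in WT and 0.10 (SE 0.12, 0.55) in KO.

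In the list for triglyceride synthesis and lipid droplets, 3 of 14 rose and 3 fell in WT and 0 rose and 3 fell in KO. Hilpda, a small droplet protein that inhibits lipolysis, moved with Plin2: its mean went from 54.4 ± 4.65 CPM on day 7 through 31.8 and 19 to 9.61 ± 2.35 CPM on day 10 in WT (SD, n = 3). That is a log2 fold change of -2.50 (SE 0.43, adjusted p 0.00014), and in KO it was -1.80 (SE 0.42, 0.0022). Lpin2 changed by -0.80 (SE 0.12, 3.7e-05) and -0.64 (SE 0.12, 0.00036). Dgat2, which makes triglycerides, rose in WT by 1.29 (SE 0.37, 0.0095), with 0.18 (SE 0.36, 0.74) in KO (edgeR interaction adjusted p 0.78). Dgat1, its sister enzyme, fell in KO, at -0.56 (SE 0.13, 0.0017), with -0.05 (SE 0.13, 0.80) in WT (edgeR interaction adjusted p 0.61). Smaller changes were called in WT for Agpat2 (0.29, SE 0.11, 0.039), Lpin1 (0.29, SE 0.09, 0.021) and Gpam (-0.34, SE 0.10, 0.0089), which serve earlier steps of synthesis, with 0.04, 0.18 and -0.06 in KO.

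Lipolysis genes split by enzyme. Lipe, the hormone-sensitive lipase gene, rose from 19.7 ± 1.34 to 60.8 ± 8.11 CPM in WT (log2 fold change 1.62, SE 0.28, adjusted p 0.00012) and by 1.5 (SE 0.27, 0.00026) in KO. Lipa, the lysosomal acid lipase gene, changed by -1.34 (SE 0.24, 0.0002) and -1.29 (SE 0.24, 0.00032). Pnpla2, the first lipase of droplets, was at -0.63 (SE 0.10, 6.9e-05) and -0.66 (SE 0.10, 4.9e-05), and Mgll, the last, at -0.76 (SE 0.22, 0.011) and -0.82 (SE 0.22, 0.0065). Abhd5, which activates that first lipase, was at 0.21 (SE 0.07, 0.017) in WT and -0.01 (SE 0.07, 0.91) in KO. In all 2 of 7 rose and 3 fell in WT, and 1 rose and 3 fell in KO.

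For fatty acid oxidation 0 of 20 rose and 9 fell in each genotype, 7 of them in both, with a median log2 change of -0.20 in WT and -0.21 in KO beside -0.02 and 0.0 for all genes. The changes were small. The carrier gene Slc25a20 was at -0.62 (SE 0.08, adjusted p 1.4e-05) in WT and -0.72 (SE 0.08, 2.8e-06) in KO, Ucp2 at -0.59 (SE 0.13, 0.0015) and -0.61 (SE 0.13, 0.0012). Acadl, a dehydrogenase gene, was at -0.50 (SE 0.07, 1.9e-05) and -0.22 (SE 0.07, 0.016), and Cpt1a, the gate of mitochondrial import, at -0.48 (SE 0.12, 0.0047) and -0.47 (SE 0.12, 0.0052). These counts move with scalings that shift all genes. On the log2(TPM + 1) scale 5 rose and 3 fell in WT and 3 rose and 2 fell in KO. The list median there was 0.08 in both, still below the median of all genes, at 0.21 in WT and 0.25 in KO. With library totals in place of TMM 4 rose and 4 fell in WT and 2 rose and 3 fell in KO. The median of all genes was 0.22 in both genotypes with those totals.

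Other known PPAR gamma targets moved in both directions, with 5 of 10 higher and 3 lower in WT and 5 and 4 in KO. Pltp, a phospholipid transfer protein gene, dropped from 265 ± 16.3 to 39.8 ± 1.37 CPM between days 7 and 8 in WT (SD, n = 3) and was at a log2 change of -2.54 (SE 0.30, adjusted p 3.2e-06) on day 10. In KO it was at -2.93 (SE 0.31, 7e-07). Aqp3, a water and glycerol channel gene, rose by 3.41 (SE 0.70, 0.00075) and 2.77 (SE 0.63, 0.0017) from under 2 CPM. Tfrc, the transferrin receptor gene, rose by 1.26 (SE 0.24, 0.00033) and 1.04 (SE 0.23, 0.0017), and Cd1d1, which presents lipid antigens, by 1.21 (SE 0.14, 3e-06) and 0.58 (SE 0.14, 0.0029). Cyp27a1, a sterol hydroxylase gene, was at -0.75 (SE 0.19, 0.0038) and -0.85 (SE 0.19, 0.0014), and Mgst1 at -0.53 (SE 0.16, 0.012) and -1.06 (SE 0.16, 3.9e-05).

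Genes that mark GM-CSF-dependent alveolar macrophages were the list with most increases in WT, with 9 of 14 higher and 2 lower, and 5 and 2 in KO, and these counts were the same on the log2(TPM + 1) scale. Eosinophil markers summed to 208 to 241 TPM on day 7 and 372 to 548 TPM on day 10 in WT, without overlap, and to 204 to 534 and 256 to 460 TPM in KO. Prg2 was the highest of the 4 eosinophil markers in the files (85 to 457 TPM over all libraries), and Siglecf (10.3 to 56.2 TPM), called higher in WT, stands in both lists. Mast cell and basophil markers summed to 128 to 167 and 115 to 183 TPM in WT and to 152 to 519 and 104 to 210 TPM in KO, and macrophage markers in WT to 2640 to 3120 and 1910 to 2160 TPM. The part of these cells in the counts for the list was not tested. Plet1, a surface protein gene, rose in the same interval as Car4: its WT mean went from 8.12 ± 0.265 CPM on day 7 to 147 ± 28.2 CPM on day 8 and 337 ± 73.8 CPM on day 10 (SD, n = 3). Its log2 change to day 10 was 5.37 (SE 0.56, adjusted p 6.9e-07) in WT and 4.30 (SE 0.52, 3.9e-06) in KO. Ear6, a ribonuclease gene with near-identical relatives that can share its reads, rose by 1.92 (SE 0.27, 1.7e-05) and 1.20 (SE 0.26, 0.0011), and Marco, a scavenger receptor gene, in WT by 1.64 (SE 0.52, 0.017), with a value of 0.45 (SE 0.51, 0.53) in KO. Csf2rb, the shared chain of the GM-CSF receptor, rose by 0.73 (SE 0.10, 1.8e-05) in WT and 0.78 (SE 0.10, 9e-06) in KO. Ctsk was at -1.02 (SE 0.22, 0.0011) and -1.21 (SE 0.22, 0.00025), and Bhlhe41, a transcription factor of these macrophages, at -0.75 (SE 0.22, 0.01) and -0.81 (SE 0.22, 0.0064).

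Of 8 other carbonic anhydrases tested from day 7 to day 10, 2 rose and 1 fell in WT and 3 rose and 2 fell in KO. From day 7 to day 8, the interval of the Car4 rise, 2 rose and 4 fell in WT and 3 rose and 1 fell in KO, so 6 and 4 of 8 were called beside 43.4% and 42.0% of all genes. Car2, the abundant cytosolic enzyme, rose in KO from 3.97 ± 0.584 to 16.7 ± 3.61 CPM (log2 fold change 2.07, SE 0.31, adjusted p 3.9e-05), and its KO mean on day 8 was already 19.9 ± 13.1 CPM (2.33 against day 7, SE 0.31, adjusted p 5.5e-06). Its WT means were 8.46 ± 0.916 CPM on day 7 and 11.6 ± 1.52 CPM on day 10 (0.46, SE 0.29, adjusted p 0.24; SD, n = 3). The edgeR interaction for Car2 had an adjusted p of 0.33. The mitochondrial Car5b was at 0.45 (SE 0.17, adjusted p 0.04) in WT and 0.48 (SE 0.17, 0.029) in KO.

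**Figure D5:**
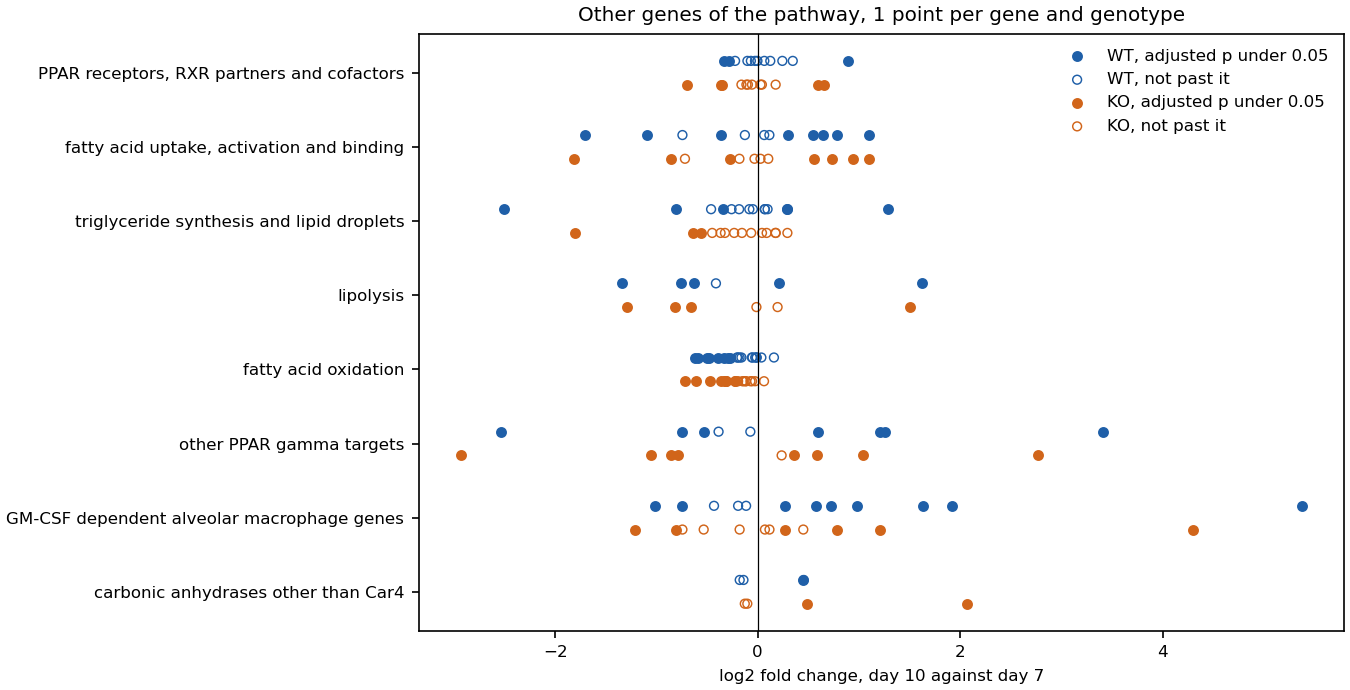
Log2 fold change from day 7 to day 10 (x axis) of the 88 of 98 tested list genes with an average log2 CPM above 1, by list (y axis) and genotype (colour). Filled points passed an edgeR adjusted p of 0.05. Plet1 is the point farthest to the right in each genotype, at 5.37 in WT and 4.30 in KO, and no oxidation gene passed on the right.

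Between genotypes, edgeR called 3 of the 98 list genes on day 7, each lower in KO, against 1.45% of all genes. At an unadjusted p under 0.05 there were 17 list genes on that day, beside 15.7% of all genes. The DESeq2 Wald test called 4 on day 7, against 3.6% of all genes. On days 8, 9 and 10 edgeR called 0 list genes, against 0.00688%, 0.00688% and 0.0138% of all genes. There were 7, 14 and 10 list genes at an unadjusted p under 0.05, beside 5.91%, 8.15% and 7.3% of all genes. The DESeq2 Wald test called 0, 1 and 0 on these days, against 0.117%, 0.674% and 0.296% of all genes. Acsl4, an acyl-CoA synthetase gene, had a day 7 mean of 124 ± 13.5 CPM for KO and 185 ± 11 CPM for WT (log2 fold change -0.58, SE 0.12, edgeR adjusted p 0.026). Olr1, a receptor for oxidised lipoproteins, stood at 32.2 ± 1.24 and 54.2 ± 3.2 CPM (-0.75, SE 0.17, 0.029), and Acadl at 95.5 ± 7.95 and 120 ± 2.51 CPM (-0.33, SE 0.07, 0.025; SD, n = 3 each). All 3 calls were lost when any 1 WT mouse was left out, where 0.0743% to 0.272% of all genes were called.

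The genes whose log2 CPM was most like that of Car4 over the 24 libraries were Cish (Pearson's r 0.987), Rasgrp1 (0.979), Upp1 (0.979), Socs1 (0.979) and Id1 (0.973). Each was low on day 7 and high on day 8: Cish went from a WT mean of 19 to 271 CPM and Socs1 from 6.31 to 66.3 CPM. The genes most like Pparg were Capn15 (0.932), Flywch2 (0.921), Dhcr7 (0.918), Col24a1 (0.915) and Stx6 (0.906), all with their lowest WT mean on day 8. Capn15, for example, had WT means of 107, 67.1, 95 and 124 CPM over the 4 days. These values describe likeness of pattern only, over libraries that share days and mice.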

How the data were processed

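Stranded poly(A) RNA-seq was made from 24 cultures, with 3 mice per group. The p-values of the main fit rest on a spread per gene that is shared by all 8 groups. A wide spread between KO libraries thus enters the tests within WT. The main fit did not pair the libraries of a mouse across days. The authors deposited raw counts per gene, TPM per gene, and a table of gene symbols. Per the submitters' processing notes, STAR 2.6.1, FastQC 0.11.9, DESeq2 1.22.2 and mm10 were named, and the counter and its strand setting are not given in the sources used here. The protocols name kits of 2 kinds without assigning them to libraries, so kit was in no model. The members and lists were chosen with earlier results of these data known.

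Counts were filtered by filterByExpr, scaled by TMM and fitted with edgeR 4.0.16 (quasi-likelihood, R 4.3.3) over all 24 libraries with 1 coefficient per group. P-values were adjusted by Benjamini-Hochberg over 14535 genes, with a threshold of 0.05, two-sided. The fit was also run on simulated counts, with no outcome given here. CPM carry TMM factors. Named were all members, per list, genotype and direction up to 3 called genes of largest change with an average log2 CPM above 1, every list gene called between genotypes, and the 5 genes most like Car4 and Pparg, leaving out predicted genes. Intervals from counts would cover counting error only, since reads carried no molecular identifiers. Chi-square per degree of freedom within groups was 7.1 to 125 over 24 pairs, so no pair within a group agreed within sampling noise.

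The mouse numbers of the labels pair libraries across days in WT, while KO numbers do not follow 1 animal. Deviations from group means correlated between days by 0.268 on average over the WT mice (lowest pair 0.0785) and by -0.0086 over the KO numbers (-0.609 to 0.597). Alternatives were DESeq2 1.42.0, its size factors in edgeR, other filters, only the groups compared, Xist as a covariate, limma-trend (limma 3.58.1) on log2(TPM + 1) and log2(TPM + 0.1), each mouse left out, and the mouse as a replicate block (voom). Exchanged KO numbers, library totals without TMM and sums over days were added after seeing the data. Positions are those of GENCODE M21 (GRCm38), which held 55094 of 55487 identifiers with the same version, and promoters those of RefSeq.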

Additional observations from a re-analysis of the deposited data

How the results depend on the processing

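Of 83 member values tested in a comparison, 26 took the other sign in at least 1 of 17 alternatives, and 0 of these 26 had been called. Between KO and WT, leaving out the filter on low counts called 1 member, Fabp4, on day 9 and 1, again Fabp4, on day 10 (0.314% and 0.15% of all genes), and leaving out 1 mouse called 0 to 3 on day 10 (3 without KO 67, with 0.559% of all genes). The log2 difference of Cd36 between KO and WT ran without 1 mouse from -0.47 to 0.07 on day 8 (0.07 without KO 67, 0.04 without WT 65), from -0.86 to 0.04 on day 9 (0.04 without KO 67) and from -0.97 to 0.21 on day 10 (0.21 without KO 64, 0.11 without WT 65, 0.06 without KO 68). From day 7 to day 8 in WT, the 5 calls, with 43.4% of all genes, became 2 on either TPM scale (46.8% and 48.0%) and 7 with only the groups compared (56.2%). They became 6 without the filter (19.9%) and 1 to 6 without 1 mouse (29.8% to 47.6%). The block with exchanged KO numbers gave 6 (49.0%) and library totals gave 4 (46.4%). From day 8 to day 9 in WT, 3 members were called with only the groups compared (16.6% of all genes), 0 with the replicate block (3.66%), 2 with the block and exchanged KO numbers (11.7%), and 0 to 2 without 1 mouse (0.115% to 11.3%). From day 9 to day 10 in WT these were 2 with only the groups compared (6.26%), 1 with the exchanged block (7.73%) and 0 to 1 without 1 mouse (0.0% to 7.25%). In KO, 1 was called from day 8 to day 9 without the filter, with Xist as a covariate or with the exchanged block (2.08%, 3.98% and 8.91%), and 0 to 1 without 1 mouse (0.136% to 3.73%). From day 9 to day 10 in KO it was 0 to 3 without 1 mouse, with Plin2, Cd36 and Lpl called without KO 67, where 14.2% of all genes were called against 0.0963% with all libraries. The block with labelled numbers changed no other member's call than those of Angptl4 given with the daily steps.

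List genes called from day 7 to day 10 were 32 to 57 in WT and 32 to 53 in KO without 1 mouse, lowest without WT 66 (32) in WT and without KO 64 (32) in KO, where 22% and 21.9% of all genes were called. On day 7 between genotypes they were 5 without the filter (1.19% of all genes), 1 on either TPM scale (0.826% and 0.888%) and 0 to 5 without 1 mouse (0.0743% to 2.4%). On the TPM scales the log2 change of Rxrb in WT was 0.0 and that of Lmf1 in KO 0.02 and 0.03. The cause of these shifts was not tested, other than the general shift of TPM values given with the lists. Depth limits Car4 on day 7, Cidec and Krt79.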
